A study of Rattus norvegicus with 22 samples.

Results

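The beta-defensin genes of the rat were followed in meiotic and postmeiotic male germ cells after chronic treatment with cyclophosphamide, an alkylating anticancer and immunosuppressive drug. A gene was a member where the accession of a non-control array probe mapped to a rat symbol beginning with Defb and a digit. The rule found 37 genes among the 15148 named genes on the array, each with 1 probe, including Defb16-ps, a pseudogene by its symbol. The current rat gene table (RefSeq, assembly GRCr8) lists 42 such genes. The other 5, namely Defb28, Defb19, Defb105a, Defb34 and Defb37, were matched by no probe and were not analysed here.

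The study hybridised 22 Agilent 1-colour arrays, each with RNA from 1 germ cell fraction labelled with a rat number. Its groups were round spermatids of cyclophosphamide (CPA) rats (n = 6), round spermatids of saline (SAL) rats (n = 6), pachytene spermatocytes of CPA rats (n = 5) and pachytene spermatocytes of SAL rats (n = 5). All rats were males dosed by gavage on 6 days a week over 4 weeks, with the drug at 6 mg/kg or with saline, and no strain, age or genotype was given. The 5 CPA pachytene samples carry 4 rat numbers, since number 16 appears with the year 2011 and with 2012, and the labels do not say whether these are different animals. Both fractions came from STA-PUT sedimentation, which enriches cells by size under gravity and does not purify them, so other testis cells can remain. In such bulk RNA, fewer cells of a type and less RNA per cell cannot be told apart.

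Beta-defensins are small cationic secreted peptides held together by disulphide bonds. They are best known as antimicrobial products of epithelia, and several also attract leukocytes or engage receptors. In rodents most members lie in a few gene clusters and many are made by the epithelium of the epididymis, where some coat the maturing sperm. In mice, deletion of a block of neighbouring genes that includes Defb1, Defb2, Defb9, Defb10, Defb11, Defb13, Defb15 and Defb50 made males sterile. Pachytene spermatocytes are in meiotic prophase, and round spermatids are their haploid products before the sperm head forms.

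In the GRCr8 table the 42 genes lay in 4 clusters. Chromosome 3 held 12 in the order Defb23, Defb20, Defb22, Defb26, Defb28, Defb29, Defb19, Defb21, Defb24, Defb27, Defb36 and Defb25, and 10 of these were on the array. Chromosome 9 held 4 next to Crisp1, a gene for an epididymal sperm-coating protein, and all 4 were on the array. Chromosome 15 held 5 (Defb42, Defb41, Defb43, Defb30 and Defb44) next to Ctsb, all on the array. Chromosome 16 held 21, with 18 on the array. Its block of alpha-defensin genes separated Defb13 to Defb1 from Defb51, Defb52, Defb33, Defb5, Defb4 and Defb14, and the sperm-binding gene Spag11a separated the last of these from Defb105b, Defb39, Defb38 and Defb40.

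The promoters of 4 genes were chosen for their values. Among genes detected on all 22 arrays with a promoter in the table, they had the 2 largest log2 differences between the cell types in each direction, in both treatments. Defb27 and Defb24, neighbours on chromosome 3, were lower in round spermatids, and Defb33 and Defb51, of the same block on chromosome 16, were higher there. Each stretch is 300 bases of RefSeq's GRCr8 sequence, from 250 before to 50 after the annotated start, read 5′ to 3′ on the gene's strand, and capitals mark matches to the motifs named after them. They cover chr3:161528991-161529290 (minus strand) for Defb27, chr3:161512934-161513233 (minus strand) for Defb24, chr16:77303918-77304217 (minus strand) for Defb33 and chr16:77273123-77273422 (plus strand) for Defb51.
Defb27: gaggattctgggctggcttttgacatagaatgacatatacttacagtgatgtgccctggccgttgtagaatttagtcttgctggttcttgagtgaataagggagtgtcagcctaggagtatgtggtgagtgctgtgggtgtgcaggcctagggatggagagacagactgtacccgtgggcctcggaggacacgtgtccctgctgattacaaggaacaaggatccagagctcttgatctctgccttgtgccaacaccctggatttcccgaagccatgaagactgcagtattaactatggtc
Defb24: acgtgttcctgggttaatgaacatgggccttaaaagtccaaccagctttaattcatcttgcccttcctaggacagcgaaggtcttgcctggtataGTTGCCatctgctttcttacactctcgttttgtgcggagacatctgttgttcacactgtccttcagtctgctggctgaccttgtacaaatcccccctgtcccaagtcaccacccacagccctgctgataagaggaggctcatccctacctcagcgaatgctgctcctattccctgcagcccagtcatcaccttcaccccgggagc
Defb33: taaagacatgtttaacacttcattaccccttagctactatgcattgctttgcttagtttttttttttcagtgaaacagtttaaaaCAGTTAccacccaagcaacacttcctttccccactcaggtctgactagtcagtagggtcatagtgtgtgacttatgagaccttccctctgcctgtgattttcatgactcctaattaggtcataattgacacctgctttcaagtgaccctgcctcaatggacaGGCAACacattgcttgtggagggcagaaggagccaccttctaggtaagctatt
Defb51: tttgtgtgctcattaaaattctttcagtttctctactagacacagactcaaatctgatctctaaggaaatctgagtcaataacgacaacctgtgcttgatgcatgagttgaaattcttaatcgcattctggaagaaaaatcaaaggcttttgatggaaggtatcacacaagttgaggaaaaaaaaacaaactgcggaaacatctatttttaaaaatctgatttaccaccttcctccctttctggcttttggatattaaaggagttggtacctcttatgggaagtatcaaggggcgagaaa

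5 motifs were searched on both strands, with overlaps between motifs allowed. These were the TATA box (TATAAA), the core bound by MYB factors (TAACTG), a half-site of the RFX factors (GTTGCC), the full cAMP response element (TGACGTCA) and the full palindromic androgen response element. The table held a promoter for 23 members, and for 14 of the 18 members that were detected in a group as defined in the next paragraph. Of the 4 promoters shown, Defb24 held 1 RFX half-site, Defb33 held 1 MYB core and 1 RFX half-site, and Defb27 and Defb51 held none of the 5 motifs in these windows. The RFX half-site stood in 5 of the 23 member promoters (Defb22, Defb24, Defb25, Defb33 and Defb40) and in 12.2% of 33469 promoters of all genes. The TATA box stood in 7 member promoters (Defb20, Defb22, Defb21, Defb49, Defb18, Defb17 and Defb30), against 14.2% of all promoters. The MYB core stood in 2 (Defb43 and Defb33), against 10% of all promoters. The cAMP response element stood in none of the 23, against 1.8% of all promoters, and the androgen response element in none, against 5 promoters in all. A match describes letters in the window and not a bound site.

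Levels are given as the log2 of the processed spot intensity relative to the 75th percentile of the same array. A level of 0 is that percentile, and a difference of 1 is a factor of 2. A gene counted as detected on an array where over 50% of its usable spots were well above background by the scanner's own flag, and as detected in a group where that held on all but at most 1 of its arrays. The arrays had 65.3% to 76.4% of probes well above background, 75th percentiles between 1069.5 and 2423.3 intensity units, and 0 saturated spots. The CPA round spermatid array of rat 16 was the lowest in both ranges, and also had the fewest detected members, 13. Slides 1 and 2 each held 3 arrays of each round spermatid group and 1 of each pachytene group. Slide 3 held 2 CPA and 1 SAL pachytene arrays, and slide 4 held 1 CPA and 2 SAL pachytene arrays. A fit within 1 slide therefore has an arm of 1 array wherever pachytene spermatocytes enter, which is assumed to vary like the other groups. The 8 round spermatid markers had a summed linear level, in units of the 75th percentile, of 402 to 707 in CPA round spermatids, 393 to 653 in SAL round spermatids, 101 to 217 in CPA pachytene spermatocytes and 108 to 288 in SAL pachytene spermatocytes. The summed level of 8 pachytene markers was 36.2 to 43.7 in CPA round spermatids, 37.6 to 46.7 in SAL round spermatids, 57.3 to 67.6 in CPA pachytene spermatocytes and 48.5 to 65.6 in SAL pachytene spermatocytes. Not all of these markers went the same way. By the limma test defined below, 6 were lower and 2 higher in round spermatids of CPA rats, and 5 lower and 2 higher in those of SAL rats. The 2 higher markers were Ccna1 and Spag6.

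A smaller share of the beta-defensin genes than of all genes was detected in every group. In CPA round spermatids 16 of the 37 members were detected (43.2%), in SAL round spermatids 15 (40.5%), in CPA pachytene spermatocytes 13 (35.1%) and in SAL pachytene spermatocytes 14 (37.8%). Over all 27525 genes and unnamed probes the shares were 68.9%, 68.9%, 66.3% and 68.2% in the same groups. The number detected on a single array ran from 13 to 20 in CPA round spermatids, and 15 to 21 in SAL round spermatids. It was 14 on each CPA pachytene array, and ran from 14 to 17 in SAL pachytene spermatocytes. These ranges overlapped between the CPA and SAL arrays of round spermatids and touched at 14 in pachytene spermatocytes.

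The 37 genes fell into 4 kinds. 12 were well above background on all 22 arrays: Defb20, Defb22, Defb24, Defb27, Defb36 and Defb25 on chromosome 3, Defb42 on chromosome 15, and Defb11, Defb51, Defb52, Defb33 and Defb14 on chromosome 16. A further 6 were detected in at least 1 group, namely Defb29, Defb21, Defb41, Defb43, Defb4 and Defb39. 5 were well above background on some arrays without being detected in a group, namely Defb23, Defb49, Defb30, Defb13 and Defb9. The remaining 14 were above background on no array: Defb26, Defb18, Defb16-ps, Defb17, Defb44, Defb15, Defb10, Defb2, Defb50, Defb1, Defb5, Defb105b, Defb38 and Defb40. Defb1, a constitutive epithelial antimicrobial peptide in mammals, is among them, as are Defb2, Defb10, Defb15 and Defb50 of the block whose deletion sterilised male mice.

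Detection followed the clusters unevenly. On chromosome 3, 8 of 10 genes on the array were detected in a group, and on chromosome 9 none of 4 was. On chromosome 15 it was 3 of 5, and on chromosome 16 it was 7 of 18. Over all 27525 genes and unnamed probes, 20090 were detected in at least 1 of the 4 groups. The counts by cluster are small and were not tested. Within chromosome 16, Defb11 was the 1 detected gene of the block from Defb13 to Defb1, while 5 of the 6 genes from Defb51 to Defb14 were detected.

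**Figure D1:**
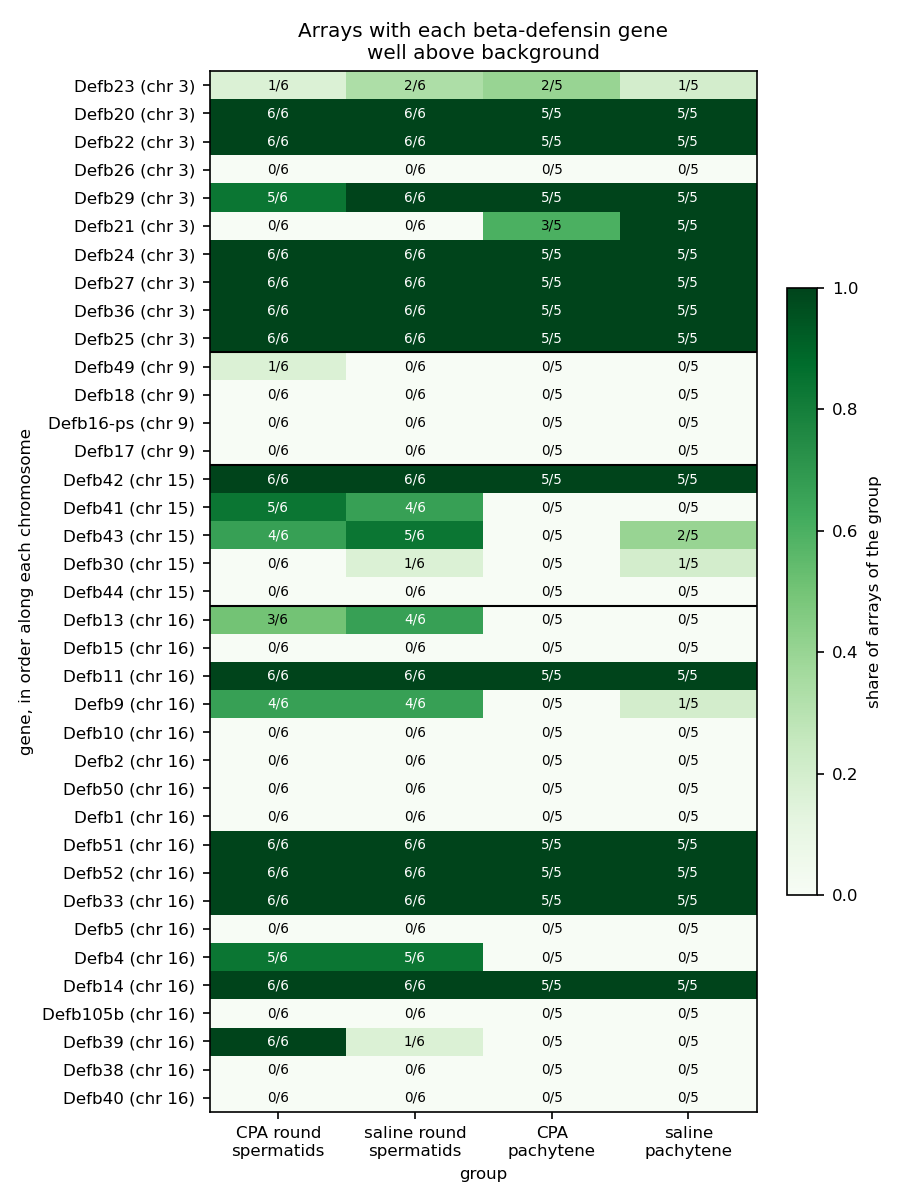
Number of arrays on which each of the 37 beta-defensin genes was well above background, by group (columns, 6 or 5 arrays each) and in chromosome order (rows), with darker cells for a larger share of the group's arrays. Full rows mark 12 genes seen on all 22 arrays, empty rows mark 14 seen on none, and Defb39 filled 6 of 6 CPA round spermatid arrays against 1 of 6 SAL round spermatid arrays.

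Defb39, the gene taken as the marker of the set, was itself well above background on 6 of 6 arrays of CPA round spermatids, 1 of 6 of SAL round spermatids, and 0 of 5 in each pachytene group. So the marker spoke for few of the arrays, and the set is described by its rule. The markers of epididymal epithelium, the tissue best known for these genes, were mostly absent. Of 12 such markers 10 were on the array, and Lcn8, Crisp1, Cst11, Rnase9, Rnase10 and Gpx5 were well above background on 0 arrays, while Lcn5 passed on 1 array of CPA round spermatids. Lcn9 was above background on all 12 round spermatid arrays, on 0 of 5 CPA pachytene arrays and on 1 of 5 SAL pachytene arrays, and Ces5a and Adam7 on all 22. The summed level of the 10 markers was 1.13 to 1.69 in CPA round spermatids, 1.14 to 3.23 in SAL round spermatids, 1.68 to 2.02 in CPA pachytene spermatocytes and 1.61 to 2.38 in SAL pachytene spermatocytes.

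Between the cell types, the detected beta-defensins moved in both directions, and the direction differed between the clusters. In SAL rats 16 members could be tested and 12 changed, 7 higher and 5 lower in round spermatids, while 75.4% of all 19845 genes tested were called, 38.4% higher and 37% lower. In CPA rats 16 members were tested and 14 changed, 10 higher and 4 lower, while 79.4% of 19773 genes were called, 39% higher and 40.3% lower. A call is an adjusted p under 0.05 in limma's moderated test over all genes tested, with Benjamini-Hochberg adjustment. The members' shares are close to these backgrounds, so the number of calls is nothing particular to the family. The median difference over all genes tested was 0.01 in SAL rats and -0.02 in CPA rats.

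By cluster, the 8 chromosome 3 genes tested in SAL rats gave 5 lower and 1 higher in round spermatids, and the 7 tested in CPA rats gave 4 lower and 2 higher. The 6 chromosome 16 genes tested in SAL rats gave 5 higher and 0 lower, and the 7 tested in CPA rats gave 6 higher and 0 lower. On chromosome 15, 1 of 2 was higher in SAL rats and 2 of 2 in CPA rats. These counts describe neighbouring genes, which are not independent, and were not tested as groups. They include genes that entered the test through 1 cell type alone, which largely set their direction. These were Defb21 on chromosome 3, Defb4 and Defb39 on chromosome 16, and Defb43 and Defb41 on chromosome 15. Among genes detected on every array, Defb24, Defb27 and Defb36 were lower, and Defb25, Defb33, Defb14, Defb51 and Defb11 higher, in both treatments.

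**Figure D2:**
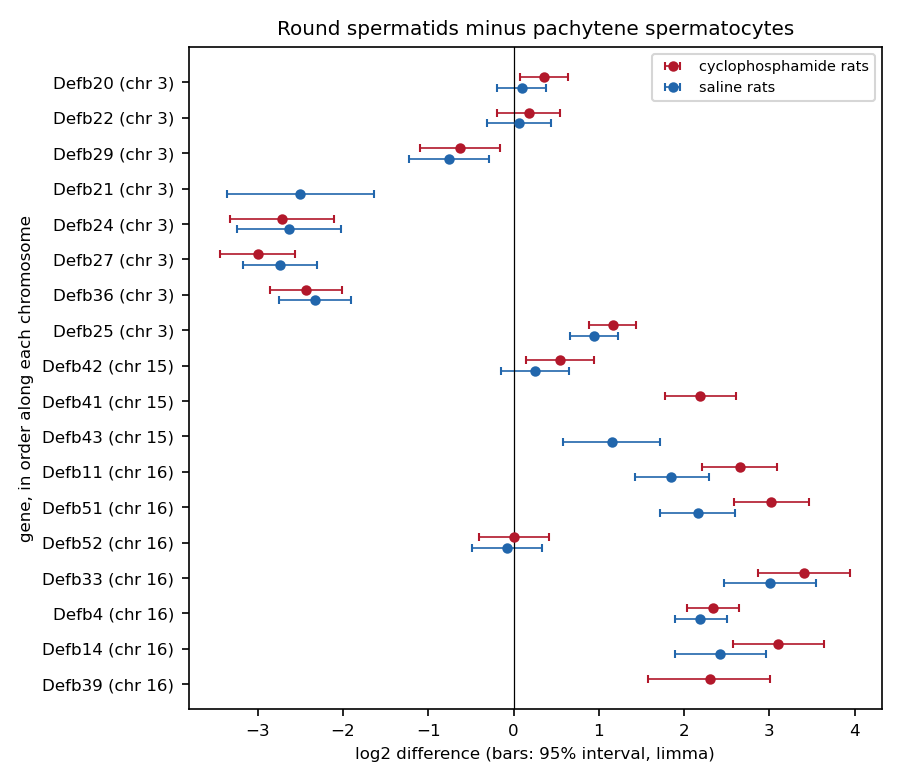
Differences between round spermatids and pachytene spermatocytes for each tested beta-defensin gene (rows, chromosome order), on the log2 scale, with bars for limma's 95% interval, in CPA rats (red, n = 6 against 5) and SAL rats (blue, n = 6 against 5). Points right of the line are higher in round spermatids: Defb33 lay at 3.41 in CPA rats and 3.01 in SAL rats, and Defb27 at -3.0 in CPA rats and -2.74 in SAL rats.

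3 adjoining genes of chromosome 3, Defb24, Defb27 and Defb36, were high in pachytene spermatocytes and about 5- to 8-fold lower in round spermatids. Defb24 had log2 levels from 0.48 to 2.20 (median 1.71) in CPA round spermatids and from 1.16 to 2.53 (median 1.72) in SAL round spermatids. In pachytene spermatocytes it stood at 4.21, 4.92, 4.58, 3.51 and 4.53 in CPA rats and at 4.84, 4.22, 4.72, 4.03 and 4.43 in SAL rats. Every pachytene array was above every round spermatid array. The difference was -2.71 ± 0.29 in CPA rats (SE, adjusted p = 1.46e-08) and -2.63 ± 0.29 in SAL rats (adjusted p = 3.02e-08).

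Defb27 had log2 levels of -1.57 to -0.45 (median -0.57) in CPA round spermatids and -1.21 to -0.11 (median -0.60) in SAL round spermatids. Its pachytene levels were 2.42, 2.49, 2.36, 1.95 and 2.05 in CPA rats and 2.36, 2.04, 2.32, 1.76 and 2.16 in SAL rats. The cell types again did not overlap. Round spermatids were 8.0-fold lower in CPA rats (log2 difference -3.0 ± 0.21, adjusted p = 1.12e-11) and 6.67-fold lower in SAL rats (-2.74 ± 0.21, adjusted p = 8.44e-11).

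Defb36, the next gene along, had log2 levels of -0.40 to 0.67 (median 0.31) in CPA round spermatids and 0.01 to 0.86 (median 0.26) in SAL round spermatids. In pachytene spermatocytes it stood at 2.84, 3.17, 2.75, 2.22 and 2.44 in CPA rats and at 2.95, 2.49, 2.97, 2.56 and 2.52 in SAL rats. No array of one cell type reached the other. The fall was 5.41-fold in CPA rats (log2 difference -2.43 ± 0.20, adjusted p = 2.22e-10) and 5.03-fold in SAL rats (-2.33 ± 0.20, adjusted p = 6.52e-10).

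Defb21, just before Defb24 on the chromosome, was a dim gene seen in pachytene spermatocytes alone. It was well above background on 0 of 6 arrays of CPA round spermatids, 0 of 6 of SAL round spermatids, 3 of 5 of CPA pachytene spermatocytes and 5 of 5 of SAL pachytene spermatocytes. The SAL pachytene levels were -4.86, -4.86, -4.81, -5.19 and -5.11. Because the round spermatid side has only a bound, the gene was at least 2.43-fold lower in SAL round spermatids than in SAL pachytene spermatocytes (adjusted p = 1.03e-05). A bound of this kind sets the brighter group's mean against the dim group's mean of, per array, the lowest signal among probes well above background or the gene's own signal, whichever is higher. That floor is lenient. For Defb41 its mean was -6.05 in CPA pachytene spermatocytes, where Defb21 at -5.25 (rat 7) was not above background. The brighter group's mean also includes its arrays not above background. So "at least" holds against this floor and is not a strict limit. An adjusted p beside a bound is limma's test of the measured signals, which are background on the dim side, and not a test of the bound. Such a gene entered the test through the group in which it was detected. In CPA rats Defb21 was not tested, and the bound was 1.62-fold lower in CPA round spermatids with 3 of 5 pachytene arrays measured.

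Defb29 was lower in round spermatids by a smaller step, with a log2 difference of -0.63 ± 0.23 in CPA rats (adjusted p = 0.0148) and -0.76 ± 0.23 in SAL rats (adjusted p = 0.0044). Its levels ran from -5.45 to -4.44 in CPA round spermatids, -5.57 to -4.27 in SAL round spermatids, -4.49 to -3.65 in CPA pachytene spermatocytes and -4.61 to -3.70 in SAL pachytene spermatocytes, so the cell types overlapped in both treatments. Within slides 1 and 2, with 1 pachytene array a treatment, the differences were -0.90 and -0.57 in CPA rats and -1.07 and -0.96 in SAL rats, and did not pass. The call in CPA rats was also lost without 1 CPA pachytene array, that of number 16 with the year 2011 (-0.52).

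Most markers of Sertoli cells, the nurse cells of the seminiferous tubule, moved the same way as these chromosome 3 genes. Of 9 Sertoli markers on the array (of 10 listed), 7 were lower and 1 higher in round spermatids in each treatment. The median log2 difference was -3.14 in CPA rats and -3.01 in SAL rats. The higher marker was Wt1, with means of -2.61 in CPA and -2.63 in SAL round spermatids. Its pachytene means were -3.81 in CPA rats and -3.75 in SAL rats. The summed level of the 9 markers was 1.71 to 4.01 in CPA round spermatids, 1.86 to 5.76 in SAL round spermatids, 19 to 33.5 in CPA pachytene spermatocytes and 20.5 to 30.5 in SAL pachytene spermatocytes. Dhh was well above background on 0 of the 12 round spermatid arrays and on all 10 pachytene arrays. Leydig cell markers followed, at 1.71 to 3.02, 1.81 to 4.19, 5.17 to 9.82 and 5.68 to 11.4 in the same order of groups. The part of these cells in the levels of Defb24, Defb27, Defb36 and Defb21 was not tested.

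The last gene of the chromosome 3 cluster, Defb25, went the other way. It was 2.24-fold higher in round spermatids of CPA rats (log2 difference 1.16 ± 0.13, adjusted p = 4.73e-08) and 1.92-fold higher in those of SAL rats (0.94 ± 0.13, adjusted p = 1.32e-06). Its levels were -2.65 to -2.04 in CPA round spermatids, -2.83 to -2.20 in SAL round spermatids, -3.77 to -3.30 in CPA pachytene spermatocytes and -3.60 to -3.18 in SAL pachytene spermatocytes, with no overlap of the cell types in either treatment.

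Defb20 and Defb22, near the other end of the cluster, differed little. Defb22 is the rat gene for the sperm glycocalyx protein whose primate relative is DEFB126. It differed by 0.18 in CPA rats (adjusted p = 0.373) and 0.06 in SAL rats (adjusted p = 0.763), and it averaged -2.99 ± 0.28 in CPA round spermatids, -2.99 ± 0.42 in SAL round spermatids, -3.17 ± 0.24 in CPA pachytene spermatocytes and -3.05 ± 0.23 in SAL pachytene spermatocytes (SD, n = 6, 6, 5 and 5). Defb20 was higher in round spermatids of CPA rats by 0.36 ± 0.14 (adjusted p = 0.0198), and in SAL rats its difference was 0.10 (adjusted p = 0.534). The Defb20 call in CPA rats was lost without 1 CPA pachytene array (rat 29, log2 difference 0.32), within slides 1 and 2 (0.32 and 0.53, 1 pachytene array each) and under another background correction (0.21).

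Of the 7 chromosome 16 genes detected in these cells, all but Defb52 were higher in round spermatids in at least 1 treatment. Defb4 and Defb39 among them were above background on round spermatid arrays alone. Defb33 had the largest difference of the members tested in both treatments, with log2 levels of 4.35 to 5.06 (median 4.88) in CPA round spermatids and 4.36 to 5.04 (median 4.70) in SAL round spermatids. In pachytene spermatocytes it stood at 1.25, 2.26, 1.32, 0.55 and 1.35 in CPA rats and at 2.46, 2.14, 1.54, 0.95 and 1.30 in SAL rats. Every round spermatid array lay above every pachytene array. The increase was 10.6-fold in CPA rats (log2 difference 3.41 ± 0.26, adjusted p = 4.69e-11) and 8.07-fold in SAL rats (3.01 ± 0.26, adjusted p = 5.47e-10).

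Defb14, whose human relative DEFB103 encodes an antimicrobial and leukocyte-attracting peptide of skin, had log2 levels of 2.59 to 3.29 (median 3.02) in CPA round spermatids and 1.73 to 3.01 (median 2.3) in SAL round spermatids. Its pachytene levels were -0.36, 0.43, 0.16, -1.25 and 0.20 in CPA rats and 0.31, 0.32, -0.16, -0.58 and -0.40 in SAL rats. The cell types were separate in both treatments. The difference was 3.1 ± 0.26 in CPA rats (8.60-fold, adjusted p = 2.17e-10) and 2.42 ± 0.26 in SAL rats (5.37-fold, adjusted p = 1.71e-08).

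Defb51 had log2 levels of 1.14 to 1.66 (median 1.44) in CPA round spermatids and 0.78 to 1.56 (median 1.33) in SAL round spermatids. In pachytene spermatocytes it stood at -1.36, -1.18, -1.85, -1.97 and -1.58 in CPA rats and at -0.70, -0.51, -0.74, -1.96 and -0.72 in SAL rats. Again no pachytene array reached a round spermatid array. The difference was 3.02 ± 0.21 in CPA rats (8.09-fold, adjusted p = 1.12e-11) and 2.16 ± 0.21 in SAL rats (4.48-fold, adjusted p = 3.91e-09).

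Defb11, a member of the block removed in the sterile mice, had log2 levels of -0.98 to 0.48 (median 0.04) in CPA round spermatids and -0.42 to 0.00 (median -0.21) in SAL round spermatids. Its pachytene levels were -2.92, -2.37, -2.75, -2.76 and -2.67 in CPA rats and -1.99, -1.42, -2.30, -2.63 and -1.98 in SAL rats. The cell types did not overlap. The difference was 2.65 ± 0.21 in CPA rats (6.27-fold, adjusted p = 9.33e-11) and 1.85 ± 0.21 in SAL rats (3.62-fold, adjusted p = 4.45e-08).

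**Figure D3:**
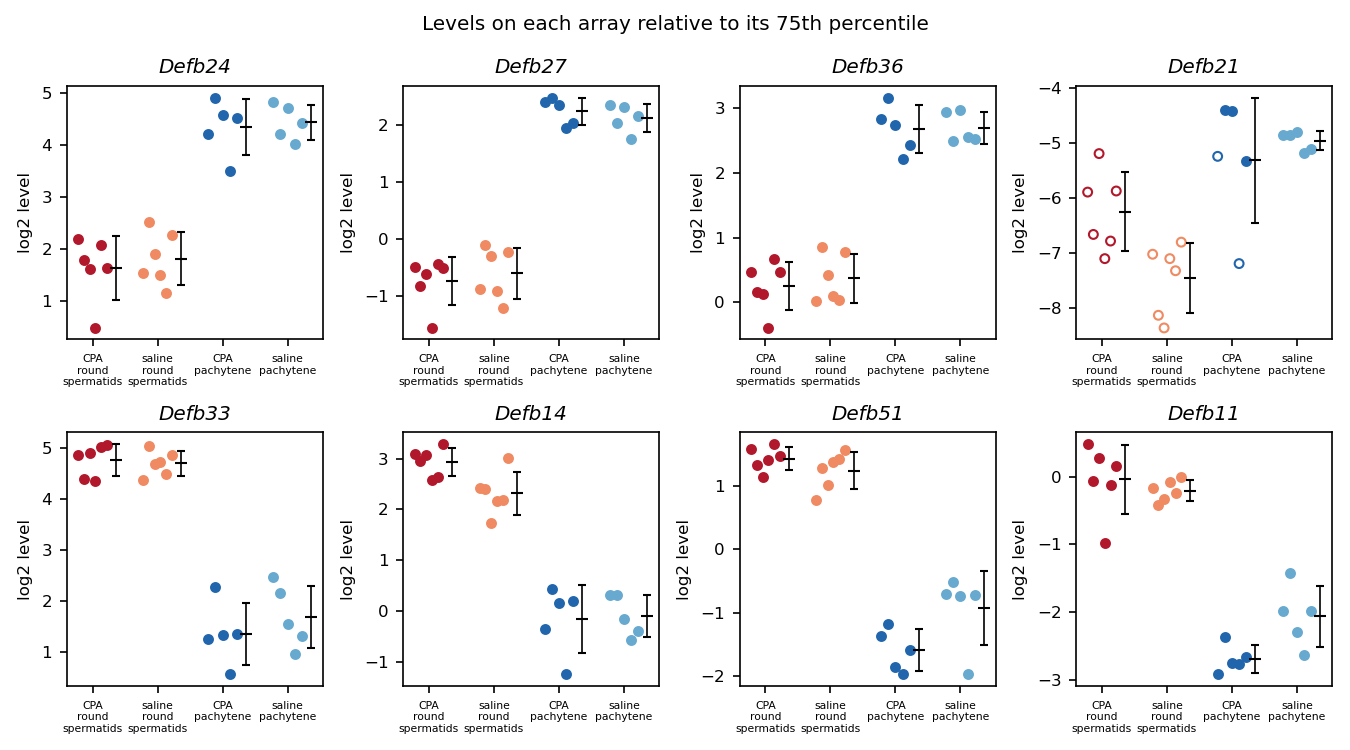
Log2 levels of 8 beta-defensin genes relative to each array's 75th percentile, 1 point per array in CPA round spermatids, SAL round spermatids, CPA pachytene spermatocytes and SAL pachytene spermatocytes (n = 6, 6, 5 and 5), with filled points for arrays well above background, open points for the others, and black marks for the mean ± SD. Defb24, Defb27, Defb36 and Defb21 (top) have lower means in round spermatids than in pachytene spermatocytes, with overlap for Defb21 in CPA rats, and Defb33, Defb14, Defb51 and Defb11 (bottom) are higher.

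Defb52, which lies between Defb51 and Defb33, did not share their difference. It was detected on every array and its log2 difference was 0.00 in CPA rats (adjusted p = 0.99) and -0.08 in SAL rats (adjusted p = 0.723). It averaged -3.1 ± 0.33 in CPA round spermatids, -3.28 ± 0.30 in SAL round spermatids, -3.1 ± 0.12 in CPA pachytene spermatocytes and -3.20 ± 0.51 in SAL pachytene spermatocytes (SD, n = 6, 6, 5 and 5).

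3 dim genes were detected in at least 1 round spermatid group and were above background on no pachytene array. Their folds are bounds against the lenient floor described for Defb21. Defb4, a relative of the inducible human epithelial peptide DEFB4A, was above background on 5 of 6 arrays of CPA round spermatids and 5 of 6 of SAL round spermatids, with 0 of 5 in each pachytene group. It was at least 1.25-fold higher in round spermatids of CPA rats (adjusted p = 1.79e-12) and at least 1.56-fold higher in those of SAL rats (adjusted p = 1.12e-11). Defb41 was above background on 5 of 6 and 4 of 6 arrays of CPA and SAL round spermatids and 0 of 5 in each pachytene group. It was at least 1.17-fold higher in round spermatids of CPA rats (adjusted p = 8.07e-10), and at least 1.59-fold higher in SAL rats, where it was not tested and 4 of 6 arrays measured it. Defb39 was at least 1.79-fold higher in round spermatids of CPA rats (adjusted p = 2.50e-06), and in SAL rats it was not tested. The calls of Defb4, Defb41 and Defb39 were lost under another background correction, normexp on the median spot signal with 50 intensity units added.

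On chromosome 15, Defb43 was higher in SAL round spermatids, at -5.79 to -4.47 against -7.05 to -5.56 in SAL pachytene spermatocytes (log2 difference 1.15 ± 0.28, adjusted p = 0.000715), with 5 of 6 and 2 of 5 arrays above background. That call was lost under the same correction and within slide 2 (0.79, 1 pachytene array). In CPA rats it was not tested, and the bound was at least 1.41-fold higher in round spermatids, with 4 of 6 arrays measured. Defb42, 1 of 3 genes whose combined disruption in rats affected sperm maturation, was higher in round spermatids of CPA rats by 0.54 ± 0.19 (adjusted p = 0.0149), and its difference in SAL rats was 0.25 (adjusted p = 0.24). Its levels were -3.57 to -2.79 in CPA round spermatids, -3.56 to -2.80 in SAL round spermatids, -4.05 to -3.42 in CPA pachytene spermatocytes and -3.79 to -2.77 in SAL pachytene spermatocytes, and these overlapped. The Defb42 call was lost within slide 1 (0.68, 1 pachytene array), without the CPA pachytene array of rat 15 (0.43) and under that correction.

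Of the 5 genes seen on scattered arrays, Defb13 and Defb9 belong to the block removed in the sterile mice. Defb13 was above background on 3 of 6 arrays of CPA round spermatids, 4 of 6 of SAL round spermatids and 0 of 5 in each pachytene group. The bound for Defb13 was at least 1.34-fold higher in round spermatids of CPA rats and 1.75-fold in those of SAL rats, with no test. Defb9 was above background on 4 of 6, 4 of 6, 0 of 5 and 1 of 5 arrays in the same order of groups. Defb49 passed on 1 CPA round spermatid array, and Defb30 on 1 SAL round spermatid array and 1 SAL pachytene array.

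Markers of macrophages and leukocytes, of peritubular myoid cells, of spermatogonia and of round spermatids moved the same way as the chromosome 16 genes. The summed level of 8 macrophage and leukocyte markers was 5.2 to 8.98 in CPA round spermatids, 3.79 to 11.5 in SAL round spermatids, 0.493 to 1.17 in CPA pachytene spermatocytes and 0.843 to 1.25 in SAL pachytene spermatocytes, and 7 of the 7 tested were higher in round spermatids in each treatment. The 5 myoid markers summed to 3.2 to 5.78, 3.46 to 5.6, 1.1 to 1.8 and 1.37 to 2.19 in the same order. The 4 spermatogonial markers on the array summed to 9.65 to 13.9, 9.96 to 13.6, 4.53 to 8.11 and 5.39 to 7.62, and 3 of 4 were higher in round spermatids in each treatment (median log2 difference 1.67 in CPA rats and 1.44 in SAL rats). All 8 round spermatid markers were higher in round spermatids in each treatment, with a median log2 difference of 3.19 in CPA rats and 2.58 in SAL rats. The part of each cell type in the levels of Defb33, Defb14, Defb51 and Defb11 was not tested.

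For Defb33 and Defb27 the differences between the cell types kept their direction within both slides that carried all 4 groups. On slide 1 the log2 difference of Defb33 was 2.66 in CPA rats and 2.13 in SAL rats, and on slide 2 it was 3.25 in CPA rats and 3.26 in SAL rats. Defb27 gave -3.01 in CPA rats and -3.06 in SAL rats on slide 1, and -3.03 in CPA rats and -2.84 in SAL rats on slide 2. Each of these values sets 3 round spermatid arrays against 1 pachytene array, and is given for its size and direction.

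No beta-defensin gene passed the test of cyclophosphamide against saline. In round spermatids 17 members were tested and 0 were called, as were 0% of all 19264 genes in limma. In pachytene spermatocytes 14 members were tested and 0 were called, as were 0% of all 18875 genes. At an unadjusted p under 0.05, limma gave 640 of 19264 genes in round spermatids, of which Defb39 and Defb14 were members. In pachytene spermatocytes it gave 1389 of 18875 genes, of which Defb51 and Defb11 were members. The smallest adjusted p over all genes was 0.978 in round spermatids and 0.675 in pachytene spermatocytes.

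In round spermatids Defb39 had the largest difference of the tested members. Its log2 levels were -5.64 to -4.73 (median -5.17) on the 6 CPA arrays, against -7.68 to -6.20 on 5 SAL arrays and -5.20 on the remaining SAL array, that of rat 16. All 6 CPA arrays were well above background and 1 SAL array was, at -6.20, so the 2 groups overlapped through a SAL signal that was not itself above background. The fitted difference was 1.45 ± 0.33 (95% interval 0.76 to 2.13, unadjusted p = 0.000232, adjusted p = 0.978). Defb39 entered this comparison through its CPA arrays alone, which largely set the direction. The difference rests on SAL values that are mostly background, for which no fold can be given. It was 1.90 within slide 1 and 1.0 within slide 2, and 1.74 without the SAL array of rat 16 (adjusted p = 0.0846, the lowest of a range up to 1 over the alternatives). In pachytene spermatocytes, where no array was above background, Defb39 was not tested.

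Defb14 was at 2.59 to 3.29 (mean 2.94 ± 0.27 SD) in CPA round spermatids and at 1.73 to 3.01 (mean 2.32 ± 0.42 SD) in SAL round spermatids, and these overlapped. The log2 difference was 0.62 ± 0.25 (95% interval 0.11 to 1.13, unadjusted p = 0.0201, adjusted p = 1). It was 0.83 within slide 1 and 0.41 within slide 2. The other 15 members tested in round spermatids differed by -0.22 to 0.23. Of these, Defb41 entered the comparison through its CPA arrays alone and Defb43 through its SAL arrays alone.

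In pachytene spermatocytes Defb51 and Defb11 had the largest differences, both lower in CPA rats. Defb51 differed by -0.66 ± 0.22 (95% interval -1.12 to -0.20, unadjusted p = 0.0066, adjusted p = 0.675), and 4 of the 5 SAL arrays, at -0.74 to -0.51, lay above all 5 CPA arrays, at -1.97 to -1.18. The fifth SAL array, that of rat 26, was at -1.96, and without it the difference was -0.92 (adjusted p = 0.0558, the lowest of a range up to 1 over the alternatives). Defb11 differed by -0.63 ± 0.22 (95% interval -1.09 to -0.18, unadjusted p = 0.0088, adjusted p = 0.675), and the groups overlapped between -2.92 to -2.37 in CPA rats and -2.63 to -1.42 in SAL rats. Within slides 1, 2, 3 and 4, each with an arm of 1 array, the differences were -0.48, -0.84, -0.89 and -0.73 for Defb51 and -0.37, -0.37, -0.86 and -0.74 for Defb11.

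The round spermatid markers were also lower in CPA pachytene spermatocytes, by a median log2 difference of -0.56 against a median of 0.03 over all genes tested, with 0 of 8 called by limma. Both Defb51 and Defb11 were higher in round spermatids, and the part of spermatids left in the pachytene fraction in their values was not tested. Defb33 differed by -0.33 ± 0.27 and Defb14 by -0.06 ± 0.27 in the same comparison. Among the pachytene-high genes, Defb24 differed by -0.10 ± 0.30, Defb27 by 0.12 ± 0.22, Defb36 by -0.02 ± 0.21 and Defb21 by -0.35 ± 0.43. Defb21 entered that comparison through its SAL arrays alone. The remaining 6 tested members differed by -0.31 to 0.10.

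**Figure D4:**
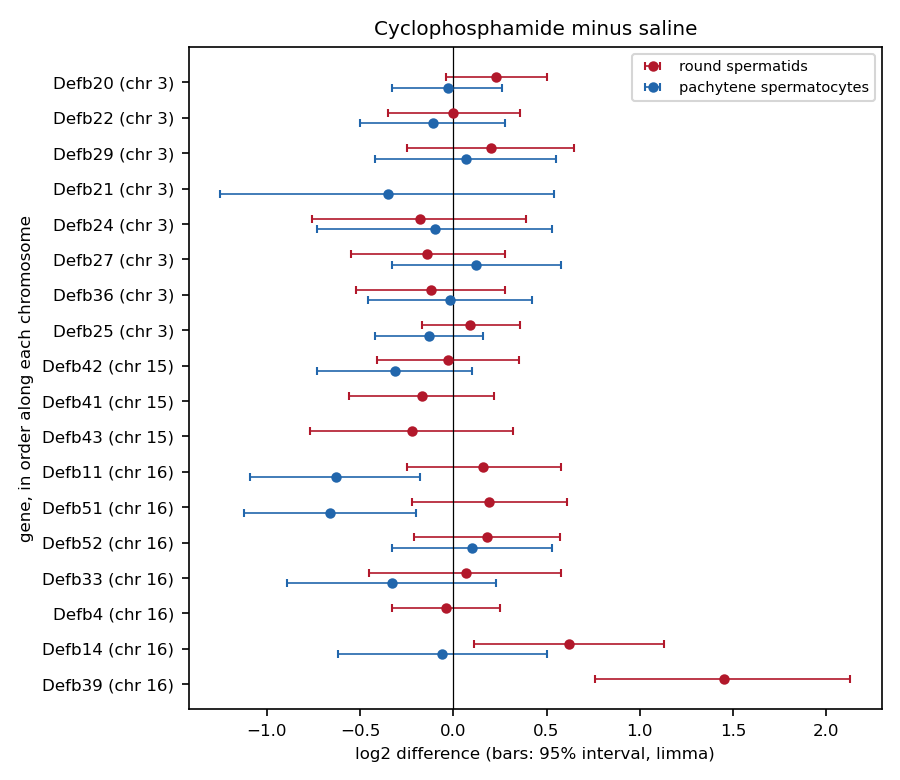
Cyclophosphamide minus saline for each tested beta-defensin gene (rows, chromosome order), on the log2 scale, with bars for limma's 95% interval, in round spermatids (red, n = 6 against 6) and pachytene spermatocytes (blue, n = 5 against 5). Intervals lie off 0 for Defb39 (1.45) and Defb14 (0.62) in round spermatids and for Defb51 (-0.66) and Defb11 (-0.63) in pachytene spermatocytes, and none of the differences passed after adjustment. Defb39 entered the round spermatid comparison through its CPA arrays alone, and its SAL values are mostly background.

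The difference of the drug effect between the cell types, round spermatids minus pachytene spermatocytes, was tested for 18 members and 0 were called, as were 0% of all 20090 genes in limma (1546 at an unadjusted p under 0.05). Among members detected on all arrays, Defb51 gave 0.85 ± 0.30 and Defb11 0.79 ± 0.30. Defb21 and Defb39 gave 1.56 ± 0.59 and 1.18 ± 0.49, but these rest on background signal, since Defb21 was above background on no round spermatid array and Defb39 on no pachytene array and 1 of 6 SAL round spermatid arrays. The fit gave an adjusted p of at least 0.63 for every member. So a drug effect that differs between the cell types was not shown for any of them.

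Defb23, the first gene of the chromosome 3 cluster and, like Defb42, 1 of the 3 genes disrupted together in rats, behaved unlike every other member. It was high on 6 of the 22 arrays, spread over all 4 groups, and at background on the other 16. The high arrays were CPA round spermatids of rat 25 (-0.98), SAL round spermatids of rats 15 (-1.01) and 17 (-1.31), CPA pachytene spermatocytes of rat 7 (-0.09) and of number 16 with the year 2012 (0.21), and SAL pachytene spermatocytes of rat 13 (-1.10). The 16 low arrays were at -8.51 to -7.20. Within each group the gap between the high and the low arrays was 6.48 in CPA round spermatids, 5.89 in SAL round spermatids, 7.74 in CPA pachytene spermatocytes and 6.66 in SAL pachytene spermatocytes.

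Of 27493 genes with a value on every array, 2 had a gap over 5 on the log2 scale inside every group, Defb23 and Itln1, an intestinal lectin gene whose smallest gap was 5.8. The largest gap of any other beta-defensin gene was 1.86. Where a rat number appears in both fractions of 1 treatment, numbers 15 (CPA) and 16, 25 and 28 (SAL) were low in both. Number 16 of CPA was low in round spermatids (-7.64) and in the pachytene sample of 2011 (-7.83), and high in the pachytene sample of 2012 (0.21). The labels do not say that a shared number is the same animal. Defb23 was not tested in any comparison, because it was detected in no group.

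**Figure D5:**
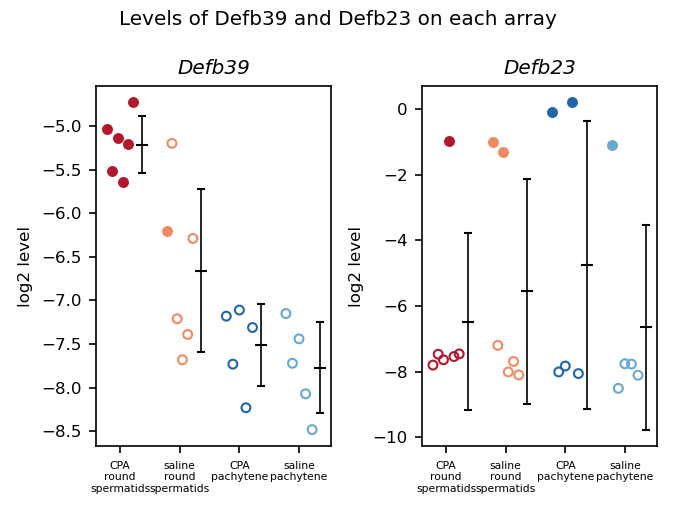
Log2 levels of Defb39 (left) and Defb23 (right) relative to each array's 75th percentile, 1 point per array, with filled points for arrays well above background and black marks for the mean ± SD (n = 6, 6, 5 and 5). Defb39 was above background on all 6 CPA round spermatid arrays at -5.64 to -4.73 and on 1 SAL array, and Defb23 split every group into arrays at -1.31 to 0.21 and arrays at -8.51 to -7.20.

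3 lists of related genes were read beside the family. Of 44 listed genes for sperm coat and epididymal secreted proteins, 25 were on the array. In CPA rats 12 of these could be tested and 5 were higher and 5 lower in round spermatids (median log2 difference -0.07), and in SAL rats 11 were tested with 5 higher and 4 lower (median -0.35). The higher genes with the largest changes were the cystatins Cst13 (3.53 in CPA rats, 2.99 in SAL rats) and Cst8 (3.18 and 2.77). The lower ones were Eppin, which encodes a sperm-binding protease inhibitor (-3.05 in CPA rats, -2.95 in SAL rats), and Cst12 (-3.04 and -2.69).

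Of 30 other antimicrobial genes, 25 were on the array and 12 were tested. In CPA rats 8 were higher and 1 lower in round spermatids (median 2.27), and in SAL rats 8 were higher and 2 lower (median 2.11). Slpi, a secreted leukocyte protease inhibitor, was above background on all 12 round spermatid arrays, on 0 of 5 CPA pachytene arrays and on 2 of 5 SAL pachytene arrays. It was at least 12.21-fold higher in round spermatids of CPA rats, and in SAL rats its measured difference was 3.66. The macrophage lysozyme gene Lyz2 was higher by 3.52 in CPA rats and 3.03 in SAL rats. The neutrophil protease gene Prtn3 was lower by -0.78 in CPA rats and -0.60 in SAL rats, and the cathelicidin gene Camp by -0.32 in SAL rats. Lyz2 is also in the list of macrophage and leukocyte markers.

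Of 20 genes for defensin receptors and their signalling, 17 were on the array and 7 were tested, with 4 higher and 3 lower in round spermatids in each treatment (median 0.68 in CPA rats and 0.94 in SAL rats). The growth factor receptor gene Egfr and the Toll-like receptor gene Tlr2 were above background on all 12 round spermatid arrays and on no pachytene array. Egfr was at least 2.65-fold higher in round spermatids of CPA rats and 3.14-fold in those of SAL rats, and Tlr2 at least 4.01-fold and 5.0-fold. The melanocortin receptor gene Mc4r was higher by 2.68 in CPA rats and 2.33 in SAL rats. Il17ra, which encodes an interleukin-17 receptor chain, differed by -1.83 in CPA rats and -1.86 in SAL rats. The adaptor gene Myd88 differed by -1.66 in CPA rats and -1.05 in SAL rats, and the NF-kappa-B subunit gene Rela by -1.49 in CPA rats and -1.30 in SAL rats. For cyclophosphamide against saline, limma called 0 genes of these 3 lists in either cell type, with 11, 12 and 7 tested in round spermatids and 9, 8 and 5 in pachytene spermatocytes.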

How the data were processed

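The labels name 22 samples in 4 groups, and the 2 cell types and 2 treatments were compared through 5 contrasts. The deposited intensity values (gProcessedSignal) are background-subtracted by Agilent Feature Extraction, version 10.7.3.1 per the file headers and 11.5.1.1 per the submitters' processing notes. Control spots and outlier spots were left out, spots of a probe were averaged as log2 intensity, and each array's 75th percentile was subtracted. Accessions were named through RefSeq's GRCr8 table (17990 of 30367 probes, 59.2%). The array's design follows another build, so no gene coordinates were taken across.

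Genes detected on all but at most 1 array of 1 group compared were fitted on all 22 arrays (limma 3.58.1, R 4.3.3), with adjusted p under 0.05. The fit was tested on simulated data. Every detected member is named, and of each list the 2 genes with the largest changes per direction. The members and lists were chosen with earlier results of these data known. The deposited table of log2 values, centred near 0 by the authors (array medians -0.00975 to 0.00702), served as an alternative. Its base and direction were checked against the scanner values, with correlations of 0.959 to 0.994 with the same array. Other alternatives were quantile normalization, normexp, filters, slide and replicate blocks, single slides and leaving out each array. The files hold no mean spot signal, so normexp used the median signal. The small number of arrays per group limits the precision, as does signal near background for dim genes. Beyond a rat number nothing says the samples of a group are separate animals, so p-values measure the spread between samples.

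Whether a rat number pairs samples was checked from deviations around the group means. Same-numbered samples correlated at -0.082 to 0.377, and different-numbered samples of the same treatment at -0.342 to 0.364. These ranges overlap, so the check neither shows nor excludes a pairing. The numbers were not taken as pairs in the main fit.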

Additional observations from a re-analysis of the deposited data

Results flagged for a closer look

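In 72 groups of 5 or 6 arrays, 5 levels of the detected beta-defensin genes lay further from the rest of their group than Dixon's critical value allows, and about 1 in 20 groups does so by chance. Defb23 was looked at because it was already seen to split the groups, so its 2 values are not counted against that rate. In CPA round spermatids, the array of rat 25 was low for Defb24 (0.48, others 1.62 to 2.20) and for Defb27 (-1.57, others -0.83 to -0.45), and high for Defb23 (-0.98, others -7.80 to -7.46). The summed Sertoli marker level on that array was 1.71, the lowest of its group. The CPA round spermatid array of rat 16 was low for Defb29 (-5.45, others -4.74 to -4.44). That array also had the lowest share of probes well above background, 65.3%. In SAL pachytene spermatocytes, the array of rat 26 was low for Defb51 (-1.96, others -0.74 to -0.51), and its summed round spermatid marker level was 108, the lowest of its group. The SAL pachytene array of rat 16 was low for Defb52 (-4.09, others -3.08 to -2.80), and that of rat 13 was high for Defb23 (-1.10, others -8.51 to -7.76). The part of the marker levels in these values was not tested.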

How the results depend on the processing

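Of 2641 member differences recomputed under the alternatives, 2623 kept their side of the threshold, 18 lost a call, and 0 called differences changed sign. Only differences called in the main fit could lose a call. The total also holds the drug differences, of which 0 were called, and the fits that leave out a single array, so it does not measure how stable the calls are. The normexp alternative called 9 beta-defensin genes between the cell types in CPA rats, against 14; it changes the background method, the offset and the input signal together, and the cause was not tested. Leaving out each array in turn gave 13 to 14 member calls in CPA rats and 12 to 12 in SAL rats, with 15382 to 15837 and 14621 to 14967 genes called. The fit with the replicate block, a pairing that the labels do not state, called 15705 genes and 14 members in CPA rats. It called 14992 genes and 12 members in SAL rats, and 0 genes for the drug. For the drug, single slides, which in pachytene spermatocytes set 1 against 1, 2 against 1 or 1 against 2 arrays and assume that the lone array varies like the rest, called 1 gene on slide 1 and 4 on slide 2 in round spermatids, 1 on slide 1, 82 on slide 3 and 8 on slide 4 in pachytene spermatocytes, and 3 on slide 1 and 2 on slide 2 for the difference between the cell types. The cause was not tested, and these counts say nothing on stability. Without 1 array that difference called 0 to 1 genes, with 1 gene without CPA pachytene 16 of 2011, SAL pachytene 25, CPA spermatid 26, or SAL spermatid 15 or 29. None of these alternatives called a member for the drug. Signal near background limits Defb39, Defb21, Defb4, Defb41 and Defb43.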
